A study of Mus musculus with 6 samples.

Results

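Mast cells are tissue-resident immune cells that store proteases, histamine and other amines in granules packed around heparin, and release them when receptors on the surface are engaged, above all the high-affinity receptor for IgE and, in skin, receptors for basic peptides. In mouse skin they are of the connective tissue type, which holds both chymases and tryptases and depends on the receptor *Kit* and its ligand. Here 286 such cells were found by rule among 20941 cells kept from 6 droplet scRNA-seq libraries (1.37%). A cell counted as a mast cell when it had at least 1 unique molecular identifier (UMI, a counted mRNA molecule) of 4 or more of 8 genes. Cells were thus chosen by their own counts of these genes. The 8 were the protease genes *Cpa3*, *Cma1*, *Mcpt4* and *Tpsb2*, the receptor genes *Kit*, *Ms4a2* and *Il1rl1*, and *Hdc*, which makes histamine. Kept cells had 200 to 5000 detected genes and under 10% of their UMIs on mitochondrial genes.

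The libraries were made from tdTomato+ cells sorted from dorsal skin, 1 library per mouse and 2 mice per group, named S1 and S2. WT mice carried tdTomato, *Cdh5*-CreERT2 and *Krt14*-H2BGFP on a C57BL/6;CD1 background and were taken in telogen at postnatal day (PD) 20 or in anagen at PD 32. KO mice carried Alk1 flox/flox, tdTomato and *Cdh5*-CreERT2 on C57BL/6, with no *Krt14*-H2BGFP named, and were taken in telogen at PD 25. This genotype is the one in the titles and descriptions of both samples, whereas their genotype field reads wild type, so KO here means the samples titled as such. All received tamoxifen at PD 17, so Cre acted in cells that express *Cdh5*, the gene of VE-cadherin, and the sort was for cells with that history rather than for immune cells. Genotype, age, strain and the *Krt14*-H2BGFP transgene change together between KO and WT telogen and cannot be told apart. The sex also differed between mice: mast cells of WT telogen S1 and both KO libraries had *Xist* UMIs and no *Ddx3y* UMI, while WT telogen S2 and both WT anagen libraries had *Ddx3y* UMIs and no *Xist* UMI. *Acvrl1*, the gene of the receptor Alk1 that Cre deletes in the KO, had 1 and 2 UMIs in the mast cells of WT telogen S1 and S2 and 0 in those of the other 4 libraries. In the ECs of the same libraries it stood at 151 and 131 CPM (UMIs of a gene per 1000000 UMIs) in WT telogen, 135 and 155 CPM in WT anagen, and 120.5 and 99.0 CPM in the KO. A 3′ count need not fall in the deleted part of the gene, so this checks neither the deletion nor the labels, and the conflict between the labels was not settled.

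The 8 genes split the kept cells sharply. Of these cells, 17758 had none of the genes, 2680 had 1, 201 had 2 and only 16 had 3, while 12 had 4, 35 had 5, 82 had 6, 108 had 7 and 49 had 8. Hence 239 of the 286 mast cells had 6 or more. Just outside the limit, the 16 cells with 3 genes had a median of 7 UMIs of the 8 genes and a median of 3960 UMIs in all. Just inside it, the 12 cells with 4 genes had a median of 53 UMIs of the 8 genes within 1207 UMIs in all. These values come from the genes the rule counts and are given as a description of its limit.

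**Figure D1:**
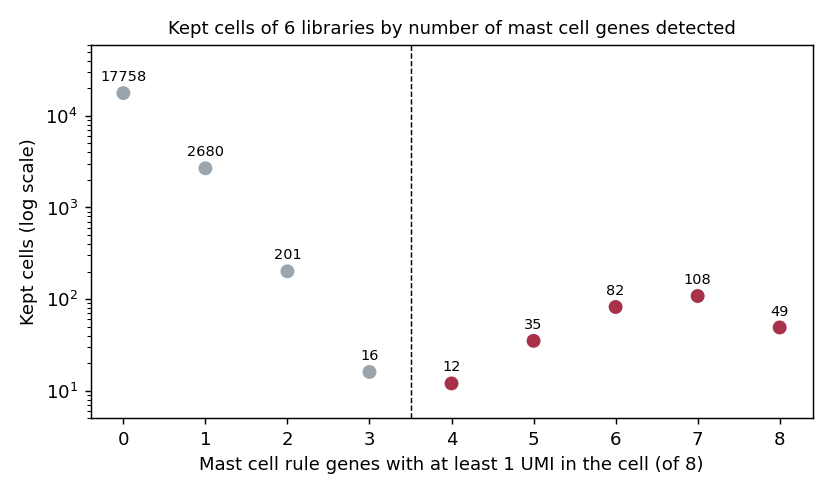
Number of kept cells of all 6 libraries (log axis) by how many of the 8 mast cell genes had at least 1 UMI. Grey points lie outside the rule and red points inside, and the lowest counts, 16 and 12 cells, stand on either side of the limit between 3 and 4 genes.

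Over all libraries mast cells yielded few UMIs beside the other immune cells. Their median was 1960.5 UMIs and 958 genes, against 12784 UMIs and 3143 genes in 1603 macrophages, 14703 UMIs and 3031.5 genes in 1102 monocytes and dendritic cells, and 5422 UMIs and 2003 genes in 12347 endothelial cells (ECs), each found by a rule on its own markers. The median per library was 2091 and 1800 UMIs in WT telogen, 1313 and 2933 UMIs in WT anagen, and 8588 and 2085.5 UMIs in the KO. KO S1 went against the rest, as its macrophages had a median of 6757 UMIs, below that of its mast cells. Summed over the mast cells of a library, 222323 and 437039 UMIs were available in WT telogen, 19099 and 88013 UMIs in WT anagen, and 96680 and 4171 UMIs in the KO. KO S2 held only 2 mast cells, so its levels are printed but were left out of means and tests. Scrublet, a doublet caller, called under 0.5% of the kept cells in every library but WT telogen S2. In those libraries the 5% of cells with the highest scores were taken instead, while WT telogen S2 kept its 51 calls. By these unlike limits 14 mast cells were marked as likely doublets. They were 3 of WT telogen S1, none of WT telogen S2, and 2 and 3 of WT anagen S1 and S2. In the KO they were 4 of the 15 of S1 and both of S2. Every KO S2 level thus comes from cells marked in this way. A further 53 barcodes met the gene rule but had too high a mitochondrial share (15.6% of 339, against 23.1% of all 27418 barcodes). Between 2 and 13 barcodes were shared by any pair of libraries, and none was a mast cell in both.

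Markers of other cell types were scarce in most of these cells. Keratinocyte markers had 2 UMIs in all, both of *Krt10*, neutrophil markers had 2 UMIs, both of *S100a9*, and none of 5 melanocyte markers was seen, although melanocytes also use *Kit*. Macrophage markers summed to 239 UMIs in WT telogen S2 (547 CPM, with *Pf4* the highest at 126 CPM) and to 10 UMIs in WT telogen S1, and all 8 were at 0 in the other 4 libraries. Monocyte and dendritic cell markers summed to 987 UMIs in WT telogen S2 (2258 CPM, with *Cd74* the highest at 707 CPM), to 22 UMIs in WT telogen S1, to 1 UMI in WT anagen S1 and to 0 elsewhere. Most of this came from a few cells. Without the 11 mast cells that also met another rule (1 in WT telogen S1, 8 in WT telogen S2 and 2 in WT anagen S2), the WT telogen S2 sums were 32 and 122 UMIs. Of the fibroblast markers *Dcn* was highest, at 180 CPM in WT telogen S1 and 750 CPM in WT anagen S2. Endothelial markers stayed between 0 and 205 CPM in the 5 larger libraries, against 5603 to 6429 CPM in ECs.

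*Cdh5* itself, the gene whose promoter drives Cre, was rarely detected. After thinning each cell to 1500 UMIs, 2.25% of 178 mast cells had a *Cdh5* UMI (95% exact binomial interval 0.616 to 5.65%, and 3.15% of all 286 without thinning), as did 2.25% of macrophages, 2.74% of monocytes and dendritic cells and 58.1% of ECs. The share in mast cells did not stand above that of the other immune cells, and is not read as expression. Among the mast cells 1 in WT telogen S1, 2 in WT telogen S2 and 2 in WT anagen S2 also met the EC rule, and their part in this share was not tested. The tdTomato label that the cells were sorted on was not analysed here.

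Chymases, a carboxypeptidase and a tryptase were among the most abundant transcripts. *Cma1*, the mouse alpha-chymase (mast cell protease 5), had the highest mean level over the 5 larger libraries after the nuclear RNA *Malat1*, though *Mcpt4* stood above it in 3 of them. It stood at 20407 and 26515 CPM in WT telogen S1 and S2, 47280 and 28348 CPM in WT anagen S1 and S2, and 15122 and 14145 CPM in KO S1 and S2. *Mcpt4*, the other connective tissue chymase, stood at 22733 and 19996 CPM in WT telogen S1 and S2, 27017 and 40449 CPM in WT anagen S1 and S2, and 18153 and 4076 CPM in KO S1 and S2. *Cpa3*, a carboxypeptidase stored in complex with heparin, was the steadiest of the 4, at 19598 and 19552 CPM in WT telogen S1 and S2, 24923 and 24189.6 CPM in WT anagen S1 and S2, and 18349 and 5514 CPM in KO S1 and S2. *Tpsb2*, a tryptase, had 8303 and 11264 CPM in WT telogen S1 and S2, 13770.4 and 19349 CPM in WT anagen S1 and S2, and 15246 and 3117 CPM in KO S1 and S2. Because each 3′ molecule is counted once, these levels are per transcript and need no division by gene length. These 4 genes chose the cells, so their height is a description and was not tested. Together they made up 7.10% and 7.73% of all mast cell UMIs in WT telogen, 11.3% and 11.2% in WT anagen and 6.69% and 2.69% in the KO. In single cells the share ranged from 0.0124 to 29.1% with a median of 6.93%, and 6 cells were under 1%.

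The chymases did not keep 1 ratio to each other. There were 1.11 and 0.754 *Mcpt4* UMIs per *Cma1* UMI in WT telogen, 0.571 and 1.43 in WT anagen, and 1.20 and 0.288 in the KO. Mice of the same group thus stood on different sides of equality, in both stages. When each of the 8 genes in turn was left out and cells were chosen by 4 of the other 7, between 153 and 161 of the 161 cells of WT telogen S2 remained, 9 to 11 of the 11 of WT anagen S1 and 21 to 22 of the 22 of WT anagen S2, and those of the other libraries were kept. The mean level of the gene left out moved by less than its SD between libraries.

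The protease genes lie in a pair of clusters, and within each the transcripts came from a few neighbours. On chromosome 14 of mm10, between 55941451 and 56262260, *Cma1* and *Mcpt4* gave 21044 and 19641 UMIs. *Cma2*, which lies next to *Cma1*, gave 524 UMIs in 121 cells. *Ctsg*, the gene of cathepsin G, gave 87 UMIs in 38 cells. The mucosal mast cell proteases *Mcpt1* and *Mcpt2* gave 2 and 1 UMIs and the basophil protease *Mcpt8* gave 13 UMIs in 11 cells. The granzyme genes *Gzme*, *Gzmd*, *Gzmg*, *Gzmn* and *Gzmf* were at 0, and *Gzmc* and *Gzmb* had 2 UMIs each. On chromosome 17, between 25298394 and 25374442, *Tpsb2* gave 10222 UMIs, *Tpsab1* 1741, *Tpsg1* 168 and *Prss34* 101, while *Prss28* and *Prss29* were at 0. How far a gene of these clusters was held by mast cells differed. Mast cells had 98.7% of all *Cma1* UMIs of the series, 99.0% of *Mcpt4*, 98.6% of *Tpsb2*, 99.2% of *Cma2*, 99.0% of *Tpsab1* and 88.8% of *Ctsg*, but 40.6% of *Mcpt8*, 0.766% of *Gzmb* and 0.0133% of *Gzmc*, which stood at 84.6 CPM in the other kept cells.

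**Figure D2:**
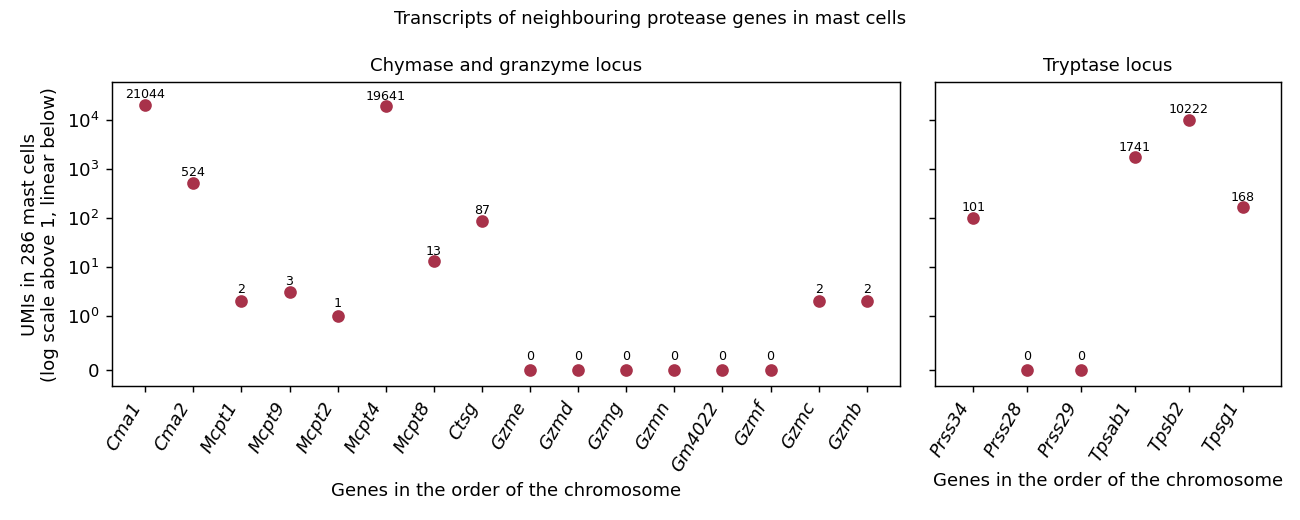
UMIs summed over the 286 mast cells for each counted gene of the chymase and granzyme cluster and of the tryptase cluster, in chromosome order (axis logarithmic above 1). *Cma1*, *Mcpt4* and *Tpsb2* stand above 10000 UMIs, and the granzyme genes lie between 0 and 2.

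Upstream sequence is shown for 4 of the genes that chose the cells, since they are the transcripts by which a mast cell is recognised here. GATA factors bind the letters AGATAA and TGATAA, and both were searched on both strands, where matches may share bases, in the 250 bases before each start site given by RefSeq (GRCm38.p6). Of the 7 rule genes with an entry, 4 held a match (57.1%), as did 5 of 16 of the genes listed further on for their ratio (31.3%), against 18.8% of 27025 genes. Counted by promoter the background was 16.6% of 32851. The stretches below run from 150 to 5 bases before the start, 5′ to 3′ on the strand of the gene, and overlap no annotated exon. Capitals mark the matches. *Cpa3* is on the minus strand at chr3:20242186-20242331, *Cma1* on the minus strand at chr14:55944680-55944825, *Mcpt4* on the minus strand at chr14:56062315-56062460 and *Ms4a2* on the minus strand at chr19:11623724-11623869.
Cpa3: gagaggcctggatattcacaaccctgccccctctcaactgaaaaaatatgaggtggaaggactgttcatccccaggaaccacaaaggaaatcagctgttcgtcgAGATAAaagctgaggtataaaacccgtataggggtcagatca
Cma1: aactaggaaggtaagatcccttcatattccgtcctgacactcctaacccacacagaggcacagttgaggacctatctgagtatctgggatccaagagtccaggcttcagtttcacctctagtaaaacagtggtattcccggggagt
Mcpt4: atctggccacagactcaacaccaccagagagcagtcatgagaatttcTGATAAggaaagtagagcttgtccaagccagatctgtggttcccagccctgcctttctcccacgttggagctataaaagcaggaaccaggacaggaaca
Ms4a2: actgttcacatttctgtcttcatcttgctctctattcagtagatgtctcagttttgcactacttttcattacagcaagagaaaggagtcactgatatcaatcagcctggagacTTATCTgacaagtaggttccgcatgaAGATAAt
A match stands 46 bases before the start of *Cpa3* and 103 before that of *Mcpt4*. *Ms4a2* has 2 in the stretch shown and 3 in the 250 bases, and *Cma1* has none in this window. A match is a description of the letters and not of a bound site.

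*Tpsab1*, the other tryptase of connective tissue mast cells, varied far more than its neighbour *Tpsb2*. Its level was 414 and 810 CPM in WT telogen S1 and S2, 419 and 2091 CPM in WT anagen S1 and S2, and 11223 and 4316 CPM in KO S1 and S2. KO S1 stood above every other library, and 606 of its 1085 *Tpsab1* UMIs lay in a single cell. Without that cell its level was 5893 CPM, still the highest. Cells with a *Tpsab1* UMI numbered 15 of 75 and 59 of 161 in WT telogen, 1 of 11 and 7 of 22 in WT anagen, and 11 of 15 and 1 of 2 in the KO. They were deeper than the rest in 5 of 6 libraries, with medians of 4248 against 1949.5 UMIs in WT telogen S1 and 3053 against 1420 UMIs in WT telogen S2, but 2701 against 3114 UMIs in WT anagen S2. *Tpsab1* and *Tpsb2* are close copies of each other, so the split of reads between them is uncertain. *Cma2* ran at 639, 510.3, 1047, 1488, 82.7 and 0 CPM in the same library order, highest in both anagen libraries and lowest in the KO.

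Many genes for the amines and for heparin stood above the other kept cells. Of 14 such genes besides *Hdc*, a gene of the rule, 10 were more than 2-fold above all other kept cells and 2 were under 0.5-fold, where of 24411 genes outside the rule with a UMI in the other cells 9.05% were over 2-fold above and 66.5% under 0.5-fold. Of the 9 at 50 CPM or more, 9 were over 2-fold above, beside 771 of all 2813 genes outside the rule at that level (27.4%). The limit of 50 CPM in mast cells favours genes that are high there, in the list as in the background, and these shares are the background of each such count below. *Hdc*, which turns histidine into histamine and is one of the genes of the rule, had 5595 and 5787 CPM in WT telogen S1 and S2, 2147 and 4533 CPM in WT anagen S1 and S2, and 6619.8 and 6473 CPM in KO S1 and S2. Serglycin (*Srgn*), the core protein that carries heparin chains, stood at 7477 ± 796 CPM (SD, n = 5 libraries). *Slc18a2*, which loads amines into granules, had 315, 503, 262, 318, 496 and 719 CPM in the library order used above. Both enzymes of serotonin synthesis were present, with *Tph1* at 154 ± 31.6 CPM and *Ddc* at 47.2 ± 9.14 CPM. Of the monoamine oxidases, which break amines down, *Maob* was at 378 ± 119.8 CPM and *Maoa* at 6.36 ± 9.43 CPM, while the other kept cells had 1.37 and 34.4 CPM. The order of these oxidases was thus the reverse of that in the rest of the skin cells.

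The genes of heparin synthesis differed in level. *Ndst2*, the sulfotransferase that heparin of mast cells needs, was at 155 ± 62.2 CPM and *Ndst1* at 25.5 ± 19 CPM, against means of 9.17 and 50.3 CPM in the other kept cells. *Hs3st1*, which adds the sulfate that lets heparin bind antithrombin, was at 899.6, 831, 419, 454, 1221 and 479.5 CPM. *Hs2st1* had 378 ± 152 CPM and *Ext1*, which extends the chain, had 317 ± 99.2 CPM. *Hs3st1* was lower in both anagen libraries than in any other library with more than 2 mast cells, a difference that did not pass the test between WT stages given further on.

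Of the 3 chains of the high-affinity IgE receptor, the one that binds IgE had the lowest mean level, though not the lowest in every library. The shared gamma chain *Fcer1g* was at 3386 ± 994 CPM, in 280 of 286 cells. The beta chain *Ms4a2* stood at 378 and 291 CPM in WT telogen S1 and S2, 105 and 182 CPM in WT anagen S1 and S2, and 248 and 959 CPM in KO S1 and S2, in 129 cells. The alpha chain *Fcer1a*, which binds IgE itself, was seen in only 18 cells, at 9 and 20.6 CPM in WT telogen S1 and S2, 157 and 68.2 CPM in WT anagen S1 and S2, and 465 and 239.8 CPM in KO S1 and S2. It stood below *Ms4a2* in both WT telogen libraries and in WT anagen S2, and above it in WT anagen S1, on 3 against 2 UMIs, and in KO S1, on 45 against 24 UMIs. It was lowest in WT telogen, where 2 of 75 and 5 of 161 cells had a UMI, and 14 of the 18 cells also had a *Tpsab1* UMI. Of all 286 cells 94 had a *Tpsab1* UMI, and these were deeper (median 3195 against 1626 UMIs). The overlap was not matched for depth or library. After thinning to 1500 UMIs, 5.06% of mast cells had a *Fcer1a* UMI and 33.1% a *Ms4a2* UMI. Of 17 genes of the receptor and its signalling besides *Ms4a2*, which is in the rule, 12 were over 2-fold above the rest, and 11 of the 13 at 50 CPM or more. The adaptors *Lat2* and *Lat* were at 795 ± 153 CPM and 139.8 ± 32.7 CPM, against 13 and 2.69 CPM in other kept cells, and the kinase *Btk* was at 95.1 ± 55.4 CPM. The kinase *Syk*, at 61.3 ± 25.8 CPM, was close to the 43.4 CPM of the rest. *Cd63*, a granule membrane protein that reaches the surface on release, had 1914 ± 213 CPM.

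Of 15 genes of the machinery that moves granules to the membrane, 5 were over 2-fold above the rest, 3 were under 0.5-fold, and *Syt2* had no UMI. At 50 CPM or more 3 of 8 were over 2-fold above. *Rab27b*, a small GTPase that tethers secretory granules, was at 891 and 853 CPM in WT telogen S1 and S2, 471 and 682 CPM in WT anagen S1 and S2, and 1479 and 1199 CPM in KO S1 and S2. Its ratio to the other kept cells was 454. *Rab27a*, its close relative, had 8 UMIs in all.

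Receptors at the surface ranged from highly expressed to barely detected. *Kit*, the receptor for stem cell factor, had 612 and 821 CPM in WT telogen S1 and S2, 628 and 591 CPM in WT anagen S1 and S2, and 983 and 1438 CPM in KO S1 and S2. *Il1rl1*, the receptor for IL-33, had 184 and 547 CPM in WT telogen S1 and S2, 471 and 318 CPM in WT anagen S1 and S2, and 1469 and 2158 CPM in KO S1 and S2. Both genes were used in the rule, and *Il1rl1* was seen in 125 cells against 219 for *Kit*. The Mas-related receptors, which respond to basic peptides and drugs, were high and were not part of the rule. *Mrgprb1* had 2676, 2634, 1937, 1932, 2948 and 719 CPM in the library order used above. *Mrgprb2*, the receptor for compound 48/80 and substance P in mouse skin mast cells, had 459, 535, 576, 318, 776 and 479.5 CPM. *Mrgprx2* had 253 ± 143 CPM. Outside mast cells the highest mean of these 3 in any cell class was 0.282 CPM, of *Mrgprb1* in ECs. The adenosine receptor *Adora3* (775 ± 257 CPM, 523-fold above the rest), *Cd200r3* (282 ± 204 CPM, 722-fold) and the shared cytokine receptor chain *Csf2rb* (771 ± 412 CPM, 4.48-fold) were also high. The complement receptors *C3ar1* and *C5ar1* had 4 and 3 UMIs, all in WT telogen S2. *Cysltr2* and *Tacr1*, receptors for leukotrienes and for substance P, had no UMI.

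Ligands for 2 of these receptors were looked for in the other cells of the same libraries. *Kitl*, the ligand of *Kit*, was at 380 and 350.1 CPM in ECs of WT telogen, 377 and 408 CPM in WT anagen, and 315 and 299 CPM in the KO. *Kitl* was also found in kept cells that met none of the rules. Levels there were 170 and 164 CPM in WT telogen, 153 and 197 CPM in WT anagen, and 311 and 182 CPM in the KO. *Il33* was low in ECs, at 8.45 and 14.8 CPM in WT telogen, 10.2 and 7.35 CPM in WT anagen, and 3.52 and 1.02 CPM in the KO. In the kept cells that met none of the rules *Il33* stood at 322 and 319 CPM in WT telogen, 300.5 and 368 CPM in WT anagen, and 192 and 39.6 CPM in the KO. These are levels of separate cells of the same sort and say nothing of the amount of ligand in the skin.

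The cytokine genes *Il4*, *Il13*, *Il6* and *Tnf* were each detected beside chemokine genes. *Il4* was at 580.2 and 219.7 CPM in WT telogen S1 and S2, 471 and 329 CPM in WT anagen S1 and S2, and 197 and 1678 CPM in KO S1 and S2. *Il13* was at 477 and 432 CPM in WT telogen S1 and S2, 52.4 and 591 CPM in WT anagen S1 and S2, and 114 and 239.8 CPM in KO S1 and S2, with 32 of the 52 UMIs of WT anagen S2 in 1 of its 22 cells (247 CPM without it). In WT telogen S1 72 of the 129 *Il4* UMIs lay in 1 of 75 cells, and without it the level was 266 CPM. In the other kept cells these stood at 0.332 and 1.75 CPM. *Il6* was detected in 120 cells, at 589, 391, 0, 318, 424 and 0 CPM in library order, and *Tnf* in 104 cells, at 274, 183, 105, 352, 341 and 959 CPM. In 1 cell lay 27 of the 41 *Il6* UMIs of KO S1, and in 1 cell 28 of the 61 *Tnf* UMIs of WT telogen S1. After thinning, 27.5% of mast cells had an *Il4* UMI, 30.9% an *Il13* UMI, 41.0% an *Il6* UMI and 27.0% a *Tnf* UMI. No share in other cells stands beside these, so they are not read as particular to mast cells. *Csf2* was uneven, at 504, 185, 0, 79.5, 776 and 0 CPM, with 79 of 112 UMIs in 1 cell in WT telogen S1 and 55 of 75 in 1 cell in KO S1. *Ccl7* and *Ccl2*, which attract monocytes, were the most abundant of the 20 genes of this group, at 5236 ± 1456 CPM and 2856 ± 1929 CPM. Over the 20 genes mast cells summed to 9068, 9715, 8534, 15134, 10364 and 5994 CPM in library order. Macrophages of the same libraries stood higher, at 24611, 23785, 39664.5, 34167, 23938 and 56542 CPM. *Ccl3* and *Ccl4* had 18 and 39 UMIs. *Cxcl2* had 445 of its 447 UMIs in WT telogen S2, 234 of them in 1 cell, and *Il1b* had 67 of 68 UMIs there. All of the *Areg* and *Ptgs2* UMIs were in that library as well. These are the mast cells in which macrophage and monocyte markers were found, and the part of those cells in these values was not tested.

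Of 10 genes for prostaglandins and leukotrienes 2 were over 2-fold above the rest, and *Hpgds* alone stood at 50 CPM or more. *Hpgds*, the haematopoietic prostaglandin D synthase, was at 306 and 412 CPM in WT telogen S1 and S2, 314 and 386 CPM in WT anagen S1 and S2, and 889.5 and 239.8 CPM in KO S1 and S2. *Alox5* had 20 UMIs and *Ltc4s* 7. Upstream of *Hpgds*, the cyclooxygenase *Ptgs1* had 6 UMIs and the phospholipase *Pla2g4a* 5. The other cyclooxygenase, *Ptgs2*, had 68 UMIs, every one of them in WT telogen S2, where its level was 156 CPM. At the depth of these cells a count near 0 does not show that a transcript was absent.

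Among 16 transcription factor genes, 8 were over 2-fold above the rest, and 7 of the 11 at 50 CPM or more. *Gata2*, needed for mast cell identity, had 918 and 759.7 CPM in WT telogen S1 and S2, 1152 and 909 CPM in WT anagen S1 and S2, and 1148 and 1678 CPM in KO S1 and S2. *Mitf* (162 ± 107 CPM), *Tal1* (202 ± 97.9 CPM), *Ikzf1* (147 ± 38.1 CPM) and *Meis2* (212 ± 117 CPM) were 22.4, 8.57, 21.4 and 8.06-fold above it. *Gata1* had 11 UMIs in 9 cells. *Cebpa* had 2 UMIs, and both were in WT telogen S2.

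Alk1 belongs to the BMP and TGF-beta pathway. Of 20 genes of that pathway, 7 stood at 50 CPM or more in mast cells, and 3 of them were over 2-fold above the rest: *Smad7*, an inhibitor of the pathway, at 353 ± 222 CPM, the receptor *Tgfbr1* at 177 ± 55.9 CPM, and *Id2* at 934 ± 284 CPM. The other targets *Id1* and *Id3* had 14 and 47 UMIs, and *Smad6* had none. Of the 20 genes 9 were under 0.5-fold, beside 66.5% of all genes outside the rule with a UMI in the other cells. Among the 10 at 50 CPM or more in the other cells 5 were, beside 34.7% of all genes at that level.

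Outside the rule, 47 of the 2813 genes at 50 CPM or more exceeded the other kept cells by over 100-fold, and 1 more had no UMI in them. The 20 with the largest ratio were *Gm47599*, *Cma2*, *Tpsab1*, *Fcer1a*, *Mrgprb1*, *Prss34*, *Mrgprb2*, *Tpsg1*, *Krt4*, *Clec12b*, *Rprm*, *Mrgprx2*, *Tph1*, *Rgs13*, *Gfi1*, *Fam110c*, *Trank1*, *Cyp11a1*, *Cdh9* and *Il4*. *Cyp11a1*, which starts steroid synthesis from cholesterol, was among the steadiest, at 1984 and 1613 CPM in WT telogen S1 and S2, 1518 and 1772 CPM in WT anagen S1 and S2, and 1914 and 719 CPM in KO S1 and S2. It was found in 232 of 286 cells. *Clec12b*, an inhibitory lectin receptor, had 1331 and 982 CPM in WT telogen S1 and S2, 1623 and 1011 CPM in WT anagen S1 and S2, and 1738 and 2158 CPM in KO S1 and S2. *Krt4*, a keratin of stratified epithelium, had 198, 229, 262, 205, 51.7 and 0 CPM in library order and was found in 94 cells, although the skin keratins *Krt14*, *Krt5*, *Krt1* and *Krt15* had no UMI. *Rgs13*, a regulator of signalling through G proteins, had 121, 93.8, 0, 45.4, 372 and 239.8 CPM. *Gm47599*, a long noncoding RNA on chromosome 10, had no UMI outside the mast cells and 28 cells with a UMI within them.

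Several genes of basophils were among these, which mast cells share in part. Of 7 basophil markers 6 were over 2-fold above the rest, 5 of the 5 at 50 CPM or more among them. Their sum ranged from 2042 to 4986 CPM in the 5 larger libraries. *Basp1* made up most of it, at 3162, 3096, 1257, 2386, 3962 and 2398 CPM, and it was also found in macrophages. *Mcpt8*, the defining protease, had 13 UMIs and was at 0 in WT anagen S2 and both KO libraries. *Prss34* had 101 UMIs in 24 cells, none of them in those libraries. *Ccl9* had UMIs only in WT telogen S2.

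**Figure D3:**
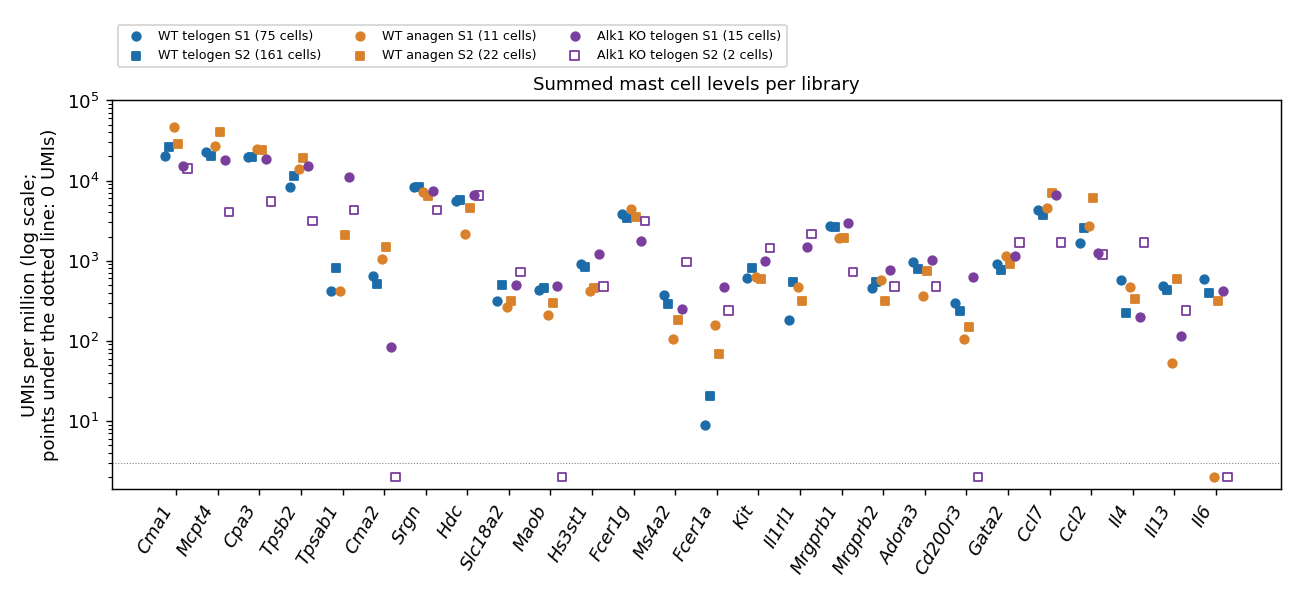
Levels of 26 genes in mast cells of each library, in CPM of the summed mast cell UMIs (log axis), with the number of cells in the key. Circles are S1, squares S2, open squares KO S2 with its 2 cells, and points under the dotted line are at 0 UMIs, as *Il6* is in WT anagen S1.

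Between mast cells the spread was led by proteases and by genes high in a few cells. In 178 cells thinned to 1500 UMIs, the 10 genes with the largest variance over mean were *Cxcl2*, *Fos*, *Jun*, *Cma1*, *Lyz2*, *Malat1*, *Mcpt4*, *Cd74*, *Ccl7* and *Tpsab1*. This value pools the libraries, so differences between them enter it. Taken within the 4 libraries of at least 5 such cells, 9 of the 10 stayed among the first 10, while *Tpsab1* came at rank 13 and *Igfbp6* at rank 9. *Cma1* had a mean of 38.0 UMIs, a maximum of 156 and was found in 175 of the cells. *Mcpt4* had a mean of 34.1 UMIs and was absent from 15 cells. *Cxcl2*, *Lyz2* and *Cd74*, genes of myeloid cells, were found in 16, 13 and 10 cells. *Fos* and *Jun*, genes that respond within minutes to a stimulus, had maxima of 51 and 80 UMIs in cells that held 1500.

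Mast cells made up a smaller part of the sorted cells in each WT anagen and KO library than in either WT telogen library. There were 75 of 3171 kept cells (2.37%, 95% exact binomial interval 1.86 to 2.96%) and 161 of 4692 (3.43%, 2.93 to 3.99%) in WT telogen. WT anagen had 11 of 4301 (0.256%, 0.128 to 0.457%) and 22 of 5106 (0.431%, 0.270 to 0.652%). The KO had 15 of 1713 (0.876%, 0.491 to 1.44%) and 2 of 1958 (0.102%, 0.0124 to 0.368%). The intervals cover counting error only. Neither WT anagen nor the KO overlapped with WT telogen, while both WT anagen shares lay within the range of the KO. The share was 0.343 ± 0.124% in WT anagen against 2.90 ± 0.754% in WT telogen (SD, n = 2 each), a difference of -2.55 percentage points and an 8.44-fold lower share, with a two-sided exact permutation p = 0.333. In the KO it was 0.489 ± 0.547%, which is -2.41 percentage points and 5.93-fold lower than WT telogen, with p = 0.333 in the same exact permutation test. With 2 mice against 2, 0.333 is the smallest p this test can give. The 2 comparisons share the WT telogen libraries. The fold for the KO was 3.31 without KO S2 and 28.4 without KO S1. Without likely doublets KO S1 had 11 mast cells (0.679%) and KO S2 had 0, and the fold was 8.66. The limit for doublets was not the same in WT telogen S2 as in the KO.

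The other immune cells that were counted also made up a larger part of WT telogen. Macrophages were 12.6 and 21.1% of kept cells in WT telogen, 2.98 and 0.470% in WT anagen and 1.46 and 1.94% in the KO, and monocytes and dendritic cells 9.65 and 12.4%, 3.07 and 0.646%, and 0.584 and 2.04%, while ECs were 38.4 and 26.9%, 78.2 and 75.1%, and 74.1 and 71.5%. Over the cells meeting any of the 3 immune rules, mast cells were 9.63 and 9.30% in WT telogen, 4.06 and 27.8% in WT anagen, and 30 and 2.5% in the KO. On this denominator the mean was higher in WT anagen by 6.49 percentage points and in the KO by 6.79 percentage points, the groups overlapped, and both exact permutation tests gave p = 1. What the sort let through and how many mast cells the skin held cannot be told apart in these shares.

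**Figure D4:**
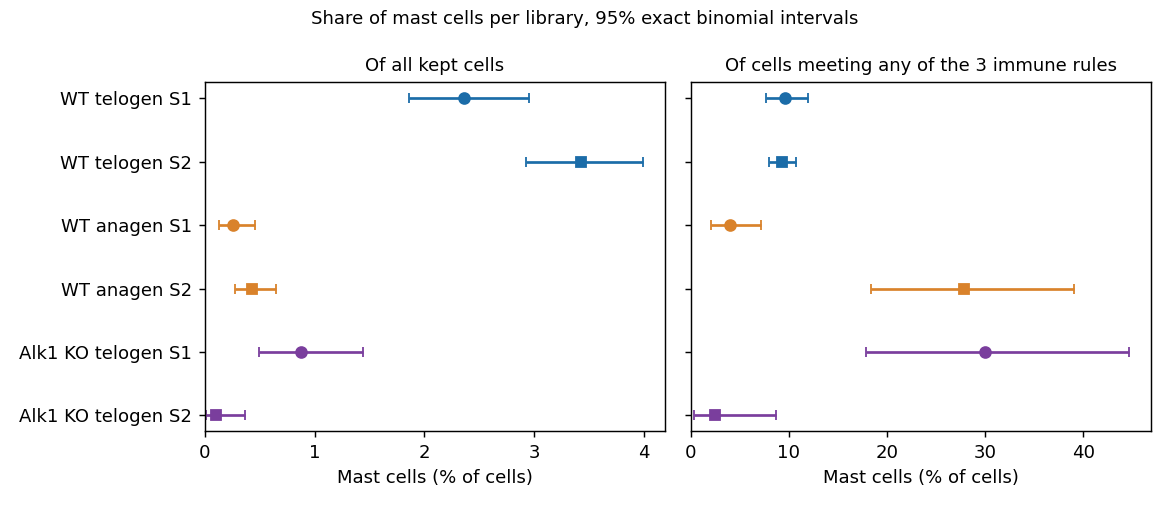
Mast cells as a percentage of all kept cells and of the cells meeting the mast cell, macrophage or monocyte and dendritic cell rule, for each library with its 95% exact binomial interval. WT telogen lies between 2.37 and 3.43% in the first panel, above the other 4 libraries, while in the second WT anagen S2 and KO S1 lie above WT telogen and WT anagen S1 and KO S2 below.

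Between WT stages the expression of mast cells differed detectably in 1 gene. Counts summed per library were tested with edgeR over 2404 genes, and genes were called where the fold exceeded 1.3 at an adjusted p under 0.05. *Fos*, on chromosome 12 from 85473890 to 85477273, rose in anagen by 2.44 on the log2 scale (SE 0.32, adjusted p = 0.0267 in the quasi-likelihood test of edgeR), from 1192 and 831 CPM in WT telogen to 6754 and 4045 CPM in WT anagen. It was higher in 2 of 2 anagen libraries than in either telogen library. This single call is 0.0416% of the genes tested, and 0% were called lower. At an unadjusted p under 0.05 there were 212 genes, and DESeq2 also called *Fos* alone. *Fos* was not called without TMM factors (log2 2.38, adjusted p = 0.0863 in edgeR). Nor was it called under 5% mitochondrial UMIs (log2 2.86, adjusted p = 0.105 in edgeR). The fold was about as large in both. On simulated counts of this depth the test found 8% of genes changed 2-fold and 65.5% of those changed 4-fold, with 2 and 10 calls of unchanged genes, so a smaller change of most genes was not detectable at this depth.

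Much of the *Fos* count lay in single cells. In WT anagen S1, 116 of 129 *Fos* UMIs (89.9%) were in 1 of 11 cells, and in WT anagen S2, 189 of 356 (53.1%) were in 1 of 22. In WT telogen the top cell held 130 of 265 UMIs (49.1%) in S1 and 89 of 363 (24.5%) in S2. Without that cell in each library the level was 619 and 635 CPM in WT telogen and 849 and 2058 CPM in WT anagen, so both anagen libraries still lay above both telogen libraries. The difference was then 1.42 on the log2 scale and did not pass the threshold (adjusted p = 0.530 in edgeR). This step removes cells by their *Fos* count itself, and 1 cell is a larger part of 11 or 22 cells than of 75 or 161, so a smaller difference follows in part from how it was made. Leaving out WT telogen S1, WT telogen S2 or WT anagen S2 gave 2.69, 2.16 and 2.47 on the log2 scale, about the size seen with all 4 libraries, and no call of *Fos* (adjusted p = 0.999, 0.177 and 0.601 in edgeR). In such a fit 1 stage has a single library, which is assumed to vary like the other stage. Without WT anagen S1, the library of 11 cells, *Fos* was at 2.05 and was called, as 1 of 136 genes. Cells with any *Fos* UMI were 33.3 and 29.2% in WT telogen and 45.5 and 40.9% in WT anagen, without matching for depth. After thinning to 1500 UMIs they were 14 of 55 and 24 of 92 in WT telogen and 2 of 4 and 4 of 14 in WT anagen. In KO S1 249 *Fos* UMIs lay in 11 of 15 cells, 181 of them in 1 cell, and KO S2 had none.

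**Figure D5:**
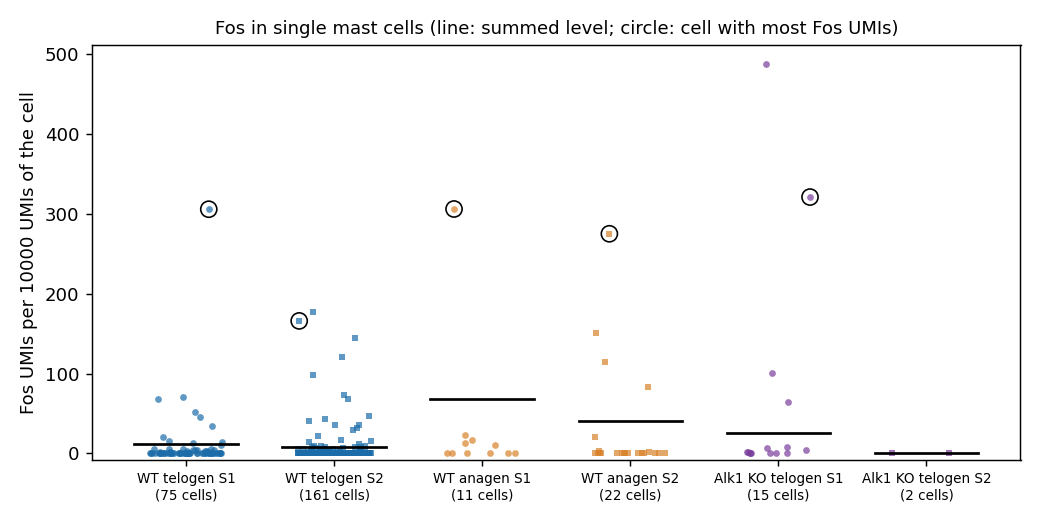
*Fos* UMIs per 10000 UMIs in each mast cell, by library, with the summed level as a line and the cell of most *Fos* UMIs circled. In WT anagen S1 the line is carried by the circled cell, which held 116 of 129 UMIs, and most other cells lie near 0.

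Genes that respond early to a stimulus, *Fos* among them, stood higher in anagen more often than not. Of 21 such genes 20 were tested, 1 was called (*Fos*), 14 had a positive estimate and the median was 0.77 on the log2 scale, beside 1195 of 2404 and a median of -0.01 over all genes tested. In 11 of the 20 the anagen libraries lay above both telogen libraries and in 4 below, where over all genes tested 15.4% lay above and 27% below. Over the 21 genes mast cells summed to 21950 and 20369 CPM in WT telogen and 37908 and 32950 CPM in WT anagen. In the KO they summed to 36616 and 31407 CPM, also above WT telogen. The macrophage sums were 10024 and 10183, 15359 and 10921, and 32140 and 18947.5 CPM in the same order. Kept cells that met none of the rules had 18822 and 16607, 21932 and 24554, and 28771.5 and 25565 CPM. These counts and sums include *Fos* and were not taken without it, and the sums were not tested. *Ier2* had 747 and 632 CPM in WT telogen and 2618 and 1261 CPM in WT anagen (adjusted p = 0.203 in edgeR). *Nr4a1* had 423 and 455 CPM against 995 and 932 CPM, with the same adjusted p in edgeR. *Egr1* had 1471 and 1451 CPM against 5812 and 1488 CPM, so 1 anagen library alone stood out. In that library, WT anagen S1, 76 of 111 *Egr1* UMIs lay in 1 of the 11 cells, as did 36 of 50 *Ier2* UMIs, 13 of 19 *Nr4a1* UMIs, 55 of 61 *Dusp1* UMIs and 38 of 59 *Jun* UMIs in the top cell of each, so single cells weigh in these counts as they do for *Fos*.

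Outside the rule, none of the listed granule, receptor or regulator genes of mast cells passed the test between stages. The 8 genes of the rule are left out of these counts, since the cells were chosen by their UMIs. Of the 9 other granule protease genes 4 were tested, 2 had positive estimates, the median was 0.31 and 1 lay higher in both anagen libraries, with none called. The latter was *Cma2*, with an adjusted p = 0.203 in edgeR. Of 14 other genes for amines and heparin 8 were tested, with a median of -0.15, 3 of them lower in both anagen libraries and 1 higher. Of 21 other surface receptors 8 were tested, with a median of -0.38, 5 lower in both anagen libraries and none higher, where over all genes tested 27% lay lower and 15.4% higher in this way. Cytokine genes (10 of 20 tested, median 0.04), transcription factors (9 of 16, median 0.18), IgE receptor genes (11 of 17, median 0.16) and secretion genes (7 of 15, median -0.18) had no call either. In the BMP and TGF-beta pathway 6 of 20 genes were tested, none had a positive estimate, the median was -0.68 and none was called. Genes of oxidative phosphorylation had positive estimates in 53 of 66 tested with a median of 0.39, and in 25 of them both anagen libraries lay above both telogen libraries and in 4 below, with none called, beside 1195 positive estimates, 371 genes above and 648 below among all 2404 tested.

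For the KO no test of genes was made, since 2 cells in KO S2 are too few, and the levels of KO S1 have no replicate. Beside the WT telogen libraries, KO S1 (15 cells) had 18349 CPM of *Cpa3* (95% exact Poisson interval 17505 to 19223), 15122 CPM of *Cma1* (14357 to 15918) and 18153 CPM of *Mcpt4* (17313 to 19022). These 3 were below both WT telogen libraries. *Tpsb2* at 15246 CPM (14478 to 16045), *Kit* at 983 CPM (795 to 1201) and *Il1rl1* at 1469 CPM (1237 to 1731) were above both. *Cma2* at 82.7 CPM (35.7 to 163) was below both, with 8 UMIs. In 1 cell of KO S1 lay 530 of its 1474 *Tpsb2* UMIs. Without that cell *Tpsb2* was at 11615 CPM, near the 11264 CPM of WT telogen S2 with all cells. Without their own top cells in KO S1, *Kit* was at 886 CPM and *Il1rl1* at 1213 CPM. The interval of *Cpa3* overlapped those of WT telogen S1 (19020 to 20188 CPM) and S2 (19140 to 19971 CPM). That of *Kit* overlapped the interval of WT telogen S2 (739 to 911 CPM). In KO S2 the intervals were wide, at 10768 to 18246 CPM for *Cma1* from 59 UMIs and 527.9 to 3131 CPM for *Kit* from 6 UMIs. The intervals cover counting error within a library and not the spread between mice, and the KO S1 cells were also the deepest. All of these genes but *Cma2* belong to the rule that chose the cells. Their levels are thus a description, and no test is read from their intervals.

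The change between stages was also set against that of macrophages in the same 4 WT libraries, with the interaction tested in edgeR. Of 5471 genes, 34 (0.621%) differed in their change, 4 with a larger anagen level in mast cells relative to macrophages and 30 with a smaller one. Of the 34, 1 was *Cma1*, a gene of the rule, for which the test is not read. In all, 9 of them had no UMI in the mast cells of either anagen library and 16 had none in WT anagen S1. Leaving out 1 library moved the count from 34 to between 0 (without WT anagen S1) and 180 (without WT anagen S2), with 15 and 5 without WT telogen S1 and S2.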

How the data were processed

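Droplet scRNA-seq libraries of sorted tdTomato+ skin cells were made by the authors with Chromium 3′ v3 chemistry, 1 per mouse, and sequenced on a NextSeq-500. The authors deposited unnormalized UMI counts per gene (32285) and barcode, obtained with Cell Ranger 6.0.1 on mm10 (the submitters' processing notes also name Seurat 4.0). Replicates were not pooled. Depth was 32626434 and 43317677 UMIs in WT telogen S1 and S2, 35035677 and 29851591 in WT anagen, and 10615358 and 11239445 in the KO.

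Mast cells were chosen by the gene rule given in the text. Macrophages needed 4 of 8 markers, monocytes and dendritic cells 5 of 10 and ECs 4 of 8. The members, gene lists and tests were chosen with earlier results of these data known. Levels are counts summed over the mast cells of a library, per 1000000 UMIs (CPM). Means and ratios use the 5 libraries with at least 5 mast cells, and mast cells against other cells were described without a test, since the rule reads the same cells. Shares of cells with a UMI that are given as thinned were counted after thinning each cell to 1500 UMIs, which left out 108 of 286 mast cells. Other numbers and shares of cells with a UMI used all cells without thinning, the percentages for *Fos* between stages among them. Summed counts were filtered with filterByExpr, scaled by TMM and tested by quasi-likelihood in edgeR. The p-values were adjusted over every gene in the fit after Benjamini and Hochberg, and genes were called where the fold exceeded 1.3 at an adjusted p under 0.05. The interaction with macrophages had the library as a block. No gene test was made for the KO, for want of cells. Shares per library were compared by exact two-sided permutation tests. Genes named are those of the rule and the lists, the 20 with the largest ratio to other cells at 50 CPM or more, the genes called between stages, the 3 called genes with the largest interaction either way, and the 10 with the largest variance over mean. Doublets were scored with Scrublet, and were kept unless stated. Where it called under 0.5% of the kept cells of a library, the 5% with the highest scores were taken instead. Stage and interaction tests are not read for the 8 genes of the rule. Upstream sequences came from RefSeq (GRCm38.p6), gene positions from GENCODE.

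The edgeR step was tested on simulated data. Python 3.11.15 (scanpy 1.11.5, matplotlib 3.10.9, numpy 2.4.6, pandas 2.3.3, scipy 1.17.1) and R 4.3.3 (edgeR 4.0.16, limma 3.58.1, DESeq2 1.42.0) were used. Alternatives were other limits of the rule and of the cell filters, removal of likely doublets, other denominators, filters and normalizations, DESeq2, the replicate number as a block, and leaving out each library. Removal of the cell with most *Fos* UMIs, and the profile without cells meeting another rule, were added after seeing the data.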

Additional observations from a re-analysis of the deposited data

Results flagged for a closer look

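The interaction test of edgeR singled out genes whose change between WT stages differed between mast cells and macrophages, and the 3 with the largest difference in each direction are given here. *Cma1* is one of the 8 genes that chose the mast cells, so its difference of 7.21 on the log2 scale is a description and no test is read from it. It had 4537, 11588, 903 and 2495 UMIs in mast cells of WT telogen S1 and S2 and WT anagen S1 and S2, and 35, 48, 0 and 0 UMIs in macrophages, a cell type that stood near 0 throughout, so the size rests on macrophage counts of 0. *Csf3*, the granulocyte growth factor, differed by 5.26 on 0, 2, 1 and 4 UMIs in mast cells against 1308, 2726, 131 and 12 in macrophages. Its mast cell counts are too low to show a change between stages, so no test is read from it. *Dcn*, a matrix proteoglycan of fibroblasts, differed by 3.75 (adjusted p = 0.00346), with 40, 25, 2 and 66 UMIs in mast cells against 117, 1102, 4 and 4 in macrophages, so few anagen UMIs of macrophages and 1 mast cell library weigh in it. *Cd74*, *Cxcl2* and *Lyz2*, genes of myeloid cells, had fitted differences of -13.80, -13.62 and -13.28, which are not read as sizes or as tests. All 3 were at 0 in mast cells of both anagen libraries and had 309, 445 and 270 UMIs in WT telogen S2, where 8 mast cells also met the rule of another cell type, so their fitted sizes depend on the prior count. Their part in these differences was not tested gene by gene, but without the cells that meet more than 1 rule, 28 genes were called in place of 34, 9 of them higher and 19 lower in mast cells.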

How the results depend on the processing

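Both comparisons of shares kept their direction under 10 of 11 alternatives each, with no test able to pass its threshold. Leaving out 1 library gave differences of -3.09 to -2.02 percentage points for the stages and -2.94 to -1.88 for the KO. Over the cells of the immune rules they reversed, to 6.49 and 6.79 points. The count of 1 called gene between stages became 35 with no filter on low counts, 0 with library totals without TMM factors, 3 with at least 3 of the 8 genes, 0 under 5% mitochondrial UMIs and 0 without the cell of most *Fos* UMIs (added later); the causes were not tested. It ranged from 0 to 136 when 1 library was left out. The interaction count of 34 ranged from 0 to 180 in the same way. Without TMM factors the median of all genes between stages moved to -0.11 on the log2 scale. *Fos* passed the threshold under 11 of 17 alternatives, with log2 values from 1.42 to 2.86. The replicate numbers do not pair the samples (correlation of deviations -0.03 over the only possible pairing of S1 with S1), and with the replicate block 1 gene was called. DESeq2, all libraries of at least 5 mast cells in 1 fit, and the removal of likely doublets also called 1. The profile had 779 genes over 2-fold above other cells, rule genes included, and 802 without mast cells meeting another rule. Not run were the equal number of cells at 1500 UMIs, as WT anagen S1 has only 4 such cells, and every alternative of the KO gene tests and of the KO interaction, which gave no value. Depth limits all gene results in WT anagen, where 33 mast cells hold 19099 and 88013 UMIs.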

Other observations

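Further gene groups of the mast cells are given as values, beside 9.05% over 2-fold above and 66.5% under 0.5-fold among all 24411 genes outside the rule with a UMI in the other kept cells. Of the 3171 genes at 50 CPM or more in those cells, 34.7% were under 0.5-fold. Of 15 cell cycle genes none was over 2-fold above the other kept cells, 11 were under 0.5-fold, none of the 3 at 50 CPM or more in the other cells among them, and *Mki67* and *Rrm2* had no UMI. Of 13 interferon-response genes 11 were under 0.5-fold, 5 of the 6 at 50 CPM or more in the other cells among them, with *Ifit1*, *Ifit2* and *Ifit3* at 0. Of 84 genes of the cytosolic ribosome 51 were under 0.5-fold and none over 2-fold (49 of the 80 at 50 CPM or more in the other cells, 61.3%), with sums of 68717 to 94089 CPM in the 5 larger libraries and 144809 CPM in the 2 cells of KO S2. Heat-shock genes summed to 6579 to 9684 CPM in the 5 larger libraries, with 3 of 11 over 2-fold above the rest. At 50 CPM or more in mast cells this is 3 of 10 (30%), near the 27.4% of all genes at that level. Of the survival genes, *Mcl1* was at 1061 ± 384 CPM and *Bcl2* at 15 ± 9.05 CPM (SD, n = 5 libraries). The T cell and innate lymphoid marker list held *Il7r*, the IL-7 receptor, at 198, 112, 0, 0, 393 and 719 CPM in WT telogen S1 and S2, WT anagen S1 and S2, and KO S1 and S2, while *Cd3d*, *Trac* and *Thy1* had no UMI. The difference between WT stages was not called (adjusted p = 0.213 in edgeR). No UMI was seen in the anagen libraries, whose 107112 mast cell UMIs together allow a level of up to 28.0 CPM at a count of 0. Lymphatic markers had 9 UMIs in all, pericyte markers 32, Schwann cell markers 11 and perineurial markers 234, of which *Slc2a1*, a glucose transporter of many cells, led in 4 of 6 libraries. In WT anagen S2 this list summed to 807 CPM on 71 UMIs, the highest sum of the 5 larger libraries, and was led by *Sfrp5* at 329 CPM.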
